A study of Mus musculus with 6 samples.

Results

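The genes described here are 10 immediate early genes, Fos, Fosb, Jun, Junb, Egr1, Ier2, Ier3, Zfp36, Klf4 and Dusp1, taken by symbol from a table of 17256 mouse genes. All 10 were found, each on 1 row, and all 10 passed the filter on low counts. The 6 RNA-seq libraries were made from antrum epithelium, which lines the distal part of the stomach, of C57BL/6 mice with atrophic gastritis. In both groups the gastritis had been induced over 20 weeks with the carcinogen MNNG, a DNA-alkylating agent, and with a drug spelled Ranitine. The vehicle group (3 libraries) then received vehicle for 2 weeks, and the PEEPA-P5 group (3 libraries) received PEEPA-P5, an agent known only by its code name, by gavage for 2 weeks. Neither the animals' ages nor the number of animals behind each library is given in the sources used here, and p-values therefore reflect only how these libraries vary, which can be technical variation. No group without gastritis was analysed here. The only comparison of the design is PEEPA-P5 against vehicle in mice with gastritis.

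Immediate early genes are transcribed within minutes of a growth factor, cytokine or stress signal, without new protein synthesis, and their transcripts are short-lived. Kinase cascades such as ERK, JNK and p38 act on transcription factors already present in the cell, among them SRF with its ETS-type partners and CREB, which bind the promoters of these genes. Their products include transcription factors (the AP-1 proteins FOS and JUN, EGR1 and KLF4) and proteins that end the response, such as the phosphatase DUSP1 and the mRNA-destabilising protein ZFP36. In the stomach, KLF4 is also known as a lasting product of differentiated surface epithelium.

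The promoters of 4 members are shown because they carry different elements of this kind and belong to genes whose levels behaved differently across the libraries. Each is the 250 bases before the gene's start in RefSeq on build GRCm38.p6, written 5′ to 3′ on the gene's strand. The windows are chr12:85473640-85473889 on the plus strand and, on the minus strand, chr7:28379229-28379478, chr17:26508473-26508722 and chr4:55532476-55532725. Capitals mark every match to the motifs searched.
Fos: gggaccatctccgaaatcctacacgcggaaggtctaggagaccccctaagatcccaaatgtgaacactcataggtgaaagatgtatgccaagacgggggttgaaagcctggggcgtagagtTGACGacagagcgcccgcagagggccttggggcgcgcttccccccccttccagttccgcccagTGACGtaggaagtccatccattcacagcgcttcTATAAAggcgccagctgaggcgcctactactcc
Zfp36: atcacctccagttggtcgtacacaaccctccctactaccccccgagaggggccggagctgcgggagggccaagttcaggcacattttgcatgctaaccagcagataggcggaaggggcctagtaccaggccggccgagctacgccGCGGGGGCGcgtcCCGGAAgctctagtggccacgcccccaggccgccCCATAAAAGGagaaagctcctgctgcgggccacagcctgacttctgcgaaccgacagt
Dusp1: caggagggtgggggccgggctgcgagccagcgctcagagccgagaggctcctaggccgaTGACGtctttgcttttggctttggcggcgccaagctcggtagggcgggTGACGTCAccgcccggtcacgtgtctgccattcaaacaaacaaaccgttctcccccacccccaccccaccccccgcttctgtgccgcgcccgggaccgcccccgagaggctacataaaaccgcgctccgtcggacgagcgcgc
Klf4: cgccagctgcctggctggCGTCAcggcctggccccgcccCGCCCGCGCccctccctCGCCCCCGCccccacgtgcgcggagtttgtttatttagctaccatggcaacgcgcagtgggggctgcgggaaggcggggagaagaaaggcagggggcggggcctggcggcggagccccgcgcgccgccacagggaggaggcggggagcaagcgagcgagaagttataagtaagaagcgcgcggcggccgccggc

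The motifs were searched on both strands. They were the CArG box (the site of SRF), TGACGTCA (the full cyclic AMP response element), TGACG (its shorter form, which every full element also contains), TGANTCA (the AP-1 site), TATAAA (the TATA box), GCGNGGGCG (the EGR site) and CCGGAA (an ETS site). RefSeq gave a promoter that can be shown for 8 of the 10 members, and the sequences of Egr1 and Ier2 are not shown. The Fos window holds TGACG 129 and 66 bases before the start and TATAAA 33 bases before it. The Zfp36 window holds a CArG box, CCATAAAAGG, 58 bases before the start, with an ETS site at 92 and an EGR site at 105. The Dusp1 window holds the full TGACGTCA element 143 bases before the start and a further TGACG at 191. The Klf4 window holds EGR sites on the opposite strand, beginning 211 and 194 bases before the start. Over the 8 members searched, TGACG was present in 5, the EGR site in 3, and the CArG box, TGACGTCA, TATAAA and CCGGAA in 1 each, while TGANTCA was in 0. Of the 32851 RefSeq promoter windows of the same length, 17.8% held TGACG, 4.70% the EGR site, 1.47% the CArG box, 1.55% TGACGTCA, 12.4% TATAAA, 12% CCGGAA and 6.75% TGANTCA. A match is a description of the letters and no measurement of binding. Sites outside these windows, and the promoters of Egr1 and Ier2, were not searched. The absence of a match therefore does not show that a gene lacks the element.

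The levels of the members, in the authors' TPM (a unit of abundance scaled to transcript length and to a fixed sum per library), spanned from Klf4, with a mean of 429.4 TPM over the 6 libraries, to Fosb, with 1.40 TPM. Between them stood Junb at 121 TPM, Fos at 65.8, Zfp36 at 55.8, Ier2 at 51.4, Ier3 at 38.9, Jun at 25.8, Egr1 at 14.4 and Dusp1 at 11.04 TPM. The lowest Klf4 value, 336.51 TPM, lay above the highest Junb value, 147.68 TPM, and the lowest Dusp1 value, 7.72 TPM, lay above the highest Fosb value, 1.90 TPM. The ranges of Fos (34.48 to 102.16 TPM), Zfp36 (41.99 to 76.34), Ier2 (42.75 to 70.08) and Ier3 (29.73 to 58.35) overlapped, so the order among these 4 is not separated from the spread over libraries. Egr1, at 1.96 to 59.04 TPM, spanned the ranges of Dusp1 and Jun entirely.

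**Figure D1:**
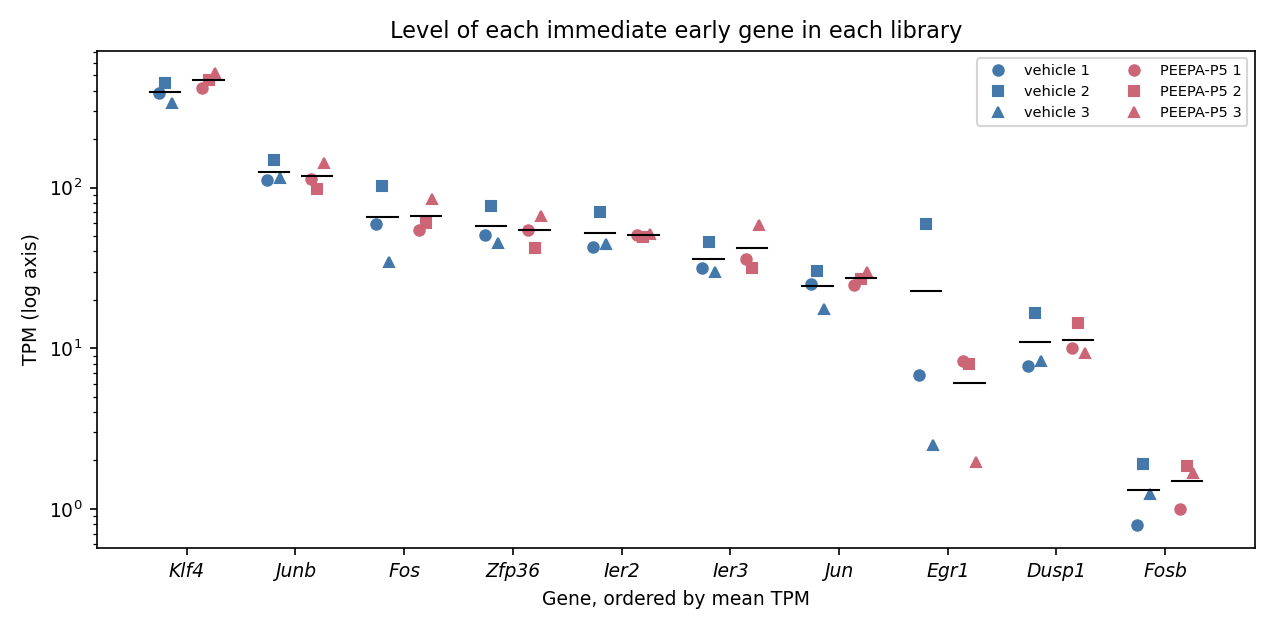
TPM on a log axis for each of the 10 genes, ordered by mean TPM; each point is 1 library (circle, square and triangle for libraries 1, 2 and 3, blue for vehicle and red for PEEPA-P5) and each black line a group mean. The groups overlap for every gene on this scale, and Egr1 spans 1.96 to 59.04 TPM.

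No member passed the adjusted threshold between PEEPA-P5 and vehicle. With edgeR's quasi-likelihood test over 13071 genes and Benjamini-Hochberg adjustment, 0 of the 10 members had an adjusted p under 0.05, as had 0 (0%) of all tested genes. DESeq2 and limma-voom also called 0 members, while DESeq2 called 110 genes, 0.834% of those it adjusted. At an unadjusted p under 0.05, 1 member was called, Klf4, which was higher with PEEPA-P5. Of all tested genes 12.1% were called in this way, 5.92% higher and 6.14% lower, and with the library number as a block 0 members were called against 13.7%. With 1 library left out at a time, the unadjusted p of Klf4 stayed under 0.05 only without PEEPA-P5 1 and rose above it without each of the other libraries. Groups did not overlap in 1 member, again Klf4, against 20.4% of all tested genes. Without vehicle 2 or without PEEPA-P5 1 this was so in 3 members. The share of all tested genes in those reduced sets was not counted, and fewer libraries separate more easily. The median log2 difference of the members was 0.18, beside -0.005 over all tested genes, and 9 of the 10 fitted differences lay above 0, where 49.4% of all tested genes did. With library totals in place of trimmed-mean (TMM) scaling factors 6 of the 10 lay above 0, and with upper quartile factors 8 did. These scalings also moved the median of all tested genes, to -0.09 and -0.05, beside 0.07 and 0.13 for the members. Without PEEPA-P5 3 the median was -0.02 and 4 of 10 differences lay above 0, without vehicle 1 it was 0.04 with 5 of 10, and without vehicle 2 it was 0.40 with 10 of 10. Without vehicle 3 it was 0.07 with 7 of 10.

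**Figure D2:**
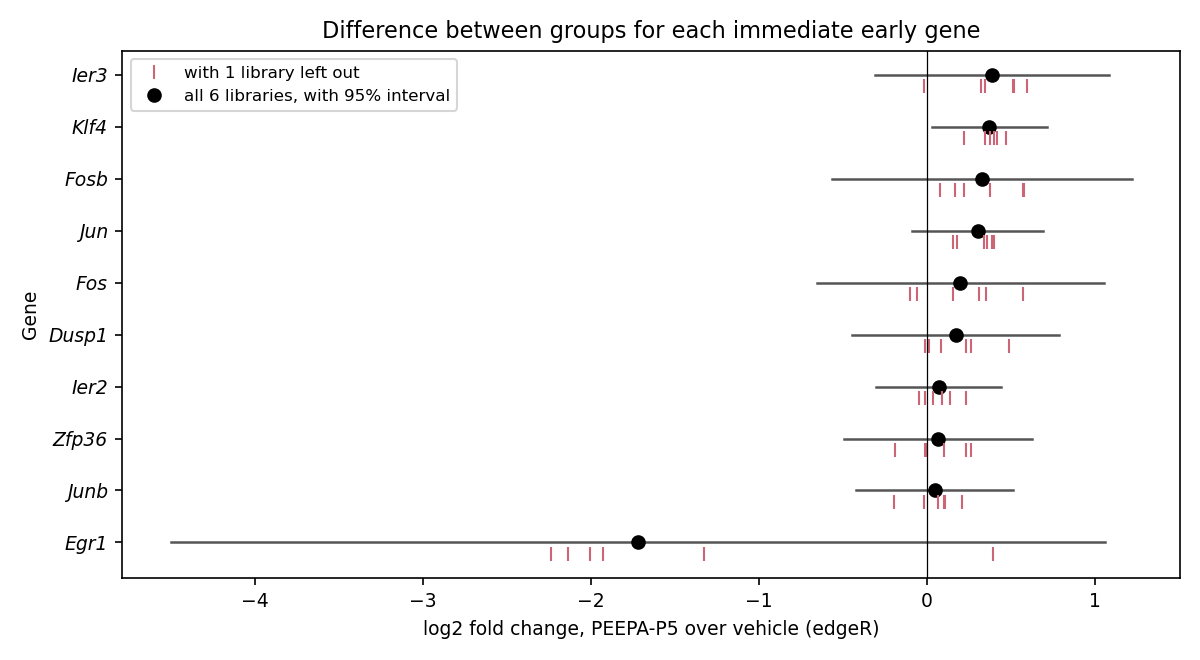
Fitted log2 fold change of each gene, PEEPA-P5 over vehicle, from edgeR; black points use all 6 libraries and grey bars are their 95% intervals, while red ticks are the values with 1 library left out in turn. Only the Klf4 interval, 0.03 to 0.71, lies clear of 0, and the Egr1 ticks lie on both sides of 0.

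In 7 of the 10 members the spread between libraries of a group exceeded the difference between groups. This count was not taken over all tested genes, so it cannot be called particular to the members. The within-group SD of log2 CPM (counts scaled to library size, here with TMM factors) had a median of 0.37 over the members and of 0.22 over all tested genes. It was highest for Egr1, at 1.70, above 99.1% of all tested genes, and lowest for Klf4, at 0.18, above 38.8%. Vehicle 2 lay above the gene's own mean over the 6 libraries in 9 of 10 members and PEEPA-P5 3 in 8, whereas vehicle 1 did so in 0, vehicle 3 in 1, PEEPA-P5 1 in 2 and PEEPA-P5 2 in 5. The share of all tested genes above their own mean in each library was not counted. The median deviation of the members was 0.27 log2 units in vehicle 2 and 0.45 in PEEPA-P5 3, against -0.17 in vehicle 1, -0.23 in vehicle 3, -0.05 in PEEPA-P5 1 and -0.01 in PEEPA-P5 2. Which of these libraries was the highest depended on the scale. In CPM the highest library was PEEPA-P5 3 for 7 members and vehicle 2 for 3, but in TPM it was vehicle 2 for 8 and PEEPA-P5 3 for 2, Klf4 and Ier3. The TMM factors were 1.10 for vehicle 2 and 0.90 for PEEPA-P5 3, the highest and lowest of the 6.

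**Figure D3:**
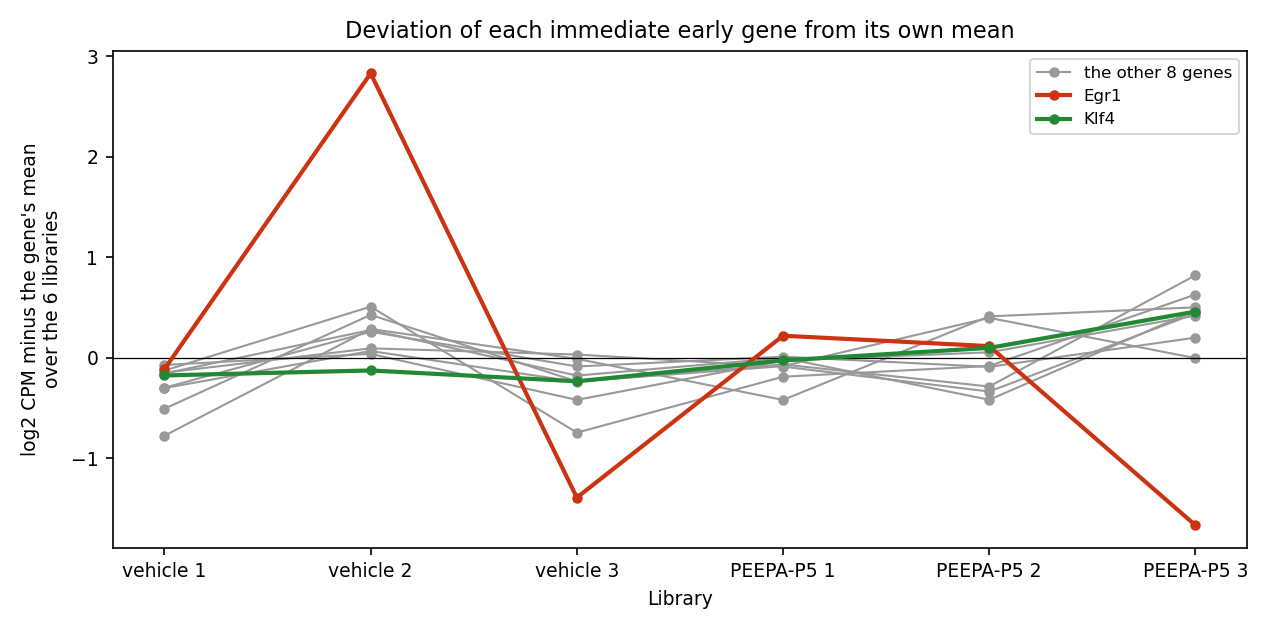
Deviation of log2 CPM from the gene's mean over the 6 libraries, by library; each line joins the values of 1 gene, with Egr1 in red, Klf4 in green and the other 8 in grey. Egr1 stands at 2.83 in vehicle 2 and at -1.67 in PEEPA-P5 3, where the other 9 genes lie between -0.003 and 0.82.

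The AP-1 proteins are dimers of a FOS and a JUN protein, or of 2 JUN proteins, joined by leucine zippers. Fos (Entrez 14281), the founding member, had 107, 167 and 69.9 CPM in vehicle 1, 2 and 3 and 103, 111 and 181 CPM in PEEPA-P5 1, 2 and 3. Vehicle 2 and PEEPA-P5 3 were high and vehicle 3 low, and the groups overlapped throughout. The log2 difference was 0.20 with a standard error of 0.36 and a 95% interval of -0.65 to 1.05 (edgeR adjusted p 0.822). It was -0.10 without PEEPA-P5 3, -0.06 without vehicle 3 and 0.57 without vehicle 2. Fosb (Entrez 14282), its close relative, was scarce, at 2.70, 5.77 and 4.68 CPM with vehicle and 3.49, 6.31 and 6.72 CPM with PEEPA-P5, which rests on 47 to 108 counts in a library. Its lowest values were in both libraries numbered 1, and its log2 difference of 0.33 had an interval of -0.56 to 1.22.

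Jun (Entrez 16476), the main partner of FOS, stood at 72.1, 77.8 and 56.6 CPM with vehicle and 74.3, 78.7 and 101 CPM with PEEPA-P5. The group ranges met only between 74.3 and 77.8 CPM, and every numbered PEEPA-P5 library was above the vehicle library of the same number in CPM. In TPM this order was turned in pairs 1 and 2, at 24.86 against 25.0 and 27.1 against 30.1 TPM. The log2 difference was 0.30 with a standard error of 0.17 and an interval of -0.09 to 0.69 (edgeR adjusted p 0.481), and without PEEPA-P5 3 it was 0.16. Junb (Entrez 16477), a partner with weaker activating capacity than JUN, was at 174, 206 and 197 CPM with vehicle and 182, 153 and 262 CPM with PEEPA-P5. PEEPA-P5 held both its lowest and its highest library, and the log2 difference of 0.05 had an interval of -0.42 to 0.51. That sign changed with upper quartile factors and with library totals, where the median of all tested genes was -0.05 and -0.09. Of the 31-base stretches in the annotated transcripts of Jun, 6.39% also occur in its antisense gene Junos, and 6.51% of those of Junb in Prdx2, so a small part of their reads could belong to those genes. The share was 6.57% for Zfp36, with Gm44710 as its main partner, 2% for Klf4 and 0.047% for Fosb. For Fos, Egr1, Ier2, Ier3 and Dusp1 this share was 0%.

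The make-up of the FOS and JUN families was read in TPM. Fos took 53.1% to 71.3% of the summed TPM of Fos, Fosb, Fosl1 and Fosl2 in a library, and Fosl2 took most of the rest, 21.8% to 42.1%. The share of Fos was highest in vehicle 2, at 71.3%, and in PEEPA-P5 3, at 64.6%. Fosb took at most 1.90% of the family. Within the JUN family, Junb took 43.2% to 62.9% and Jun only 8.51% to 13.0%, the remainder being Jund, which is known to be less inducible than the other JUN genes. Jund stood at 143, 132 and 217 CPM with vehicle and 201, 263 and 312 CPM with PEEPA-P5, a log2 difference of 0.66 (edgeR unadjusted p 0.026, adjusted p 0.412), with 1 PEEPA-P5 library below the highest vehicle library. Junb exceeded Jun by 3.60-fold in PEEPA-P5 2 to 6.46-fold in vehicle 3, in TPM.

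**Figure D4:**
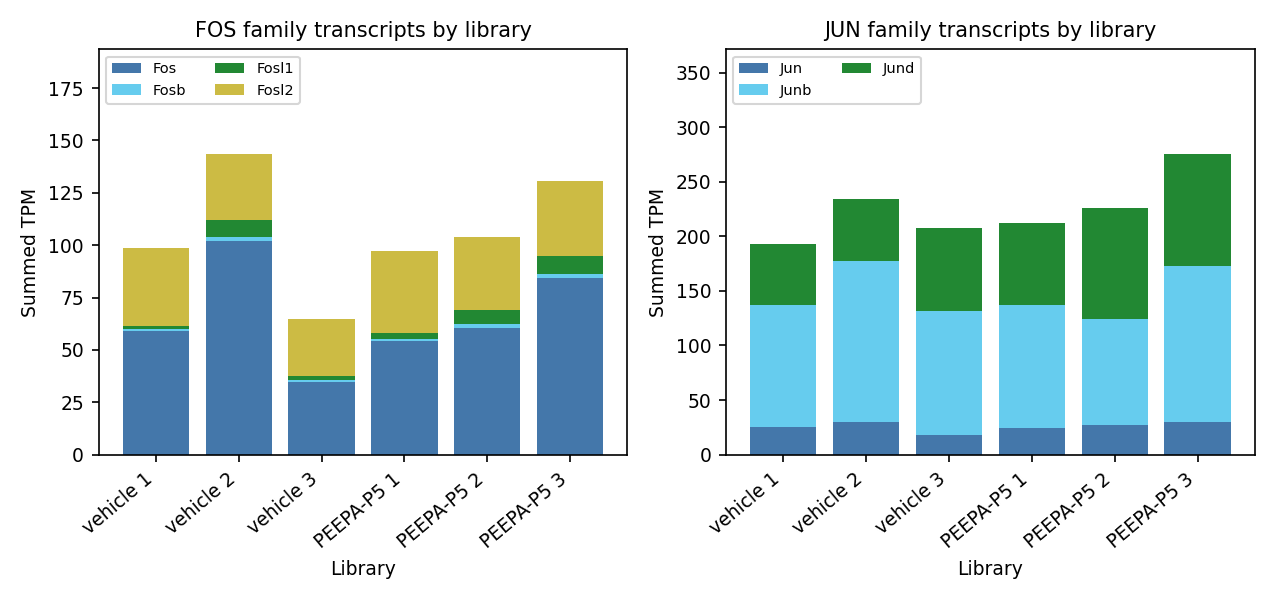
Summed TPM of the FOS family (left) and JUN family (right) in each library, with each colour 1 gene; bars start at 0. Fos and Fosl2 make up most of the FOS family and Junb and Jund most of the JUN family in every library, and the vehicle 2 bar is the tallest of the FOS family.

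Egr1 (Entrez 13653), a zinc-finger transcription factor that responds to ERK signalling, differed from the rest of the members. It had 330, 2717 and 121 counts in vehicle 1, 2 and 3 and 397, 381 and 95 counts in PEEPA-P5 1, 2 and 3, or 19.0, 147 and 7.75 CPM and 23.9, 22.2 and 6.39 CPM. Vehicle 2 was high, at 10.97 times the mean of the other vehicle libraries, and both libraries numbered 3 were low. The ratio between the highest and lowest library was 23.0 in CPM, against 1.47 to 2.59 for the other 9 members. The log2 difference was -1.72 with a standard error of 1.14 and an interval of -4.50 to 1.06 (edgeR adjusted p 0.544). Without vehicle 2 it was 0.39, so its direction rested on that library. In the replicate-block fit it was -0.92.

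Egr1 also parted from Fos, with which it shares upstream signals. Fos exceeded Egr1 by 1.73-fold in vehicle 2, 6.54-fold to 13.7-fold in vehicle 1 and 3 and PEEPA-P5 1 and 2, and 43.1-fold in PEEPA-P5 3, in TPM. Vehicle 2 was thus high for both, and PEEPA-P5 3 was high for Fos and lowest of all for Egr1. The other EGR genes were near absent, with at most 11 counts of Egr2, 18 of Egr3 and 1 of Egr4 in any library. Nr4a1, an immediate early nuclear receptor picked for mention because of its values, had 6.27, 11.3 and 3.65 CPM with vehicle and 6.45, 6.66 and 2.42 CPM with PEEPA-P5. Its highest and lowest libraries were those of Egr1, over a narrower range.

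Sums of stromal and myeloid cell markers also ran highest in vehicle 2 and lowest in PEEPA-P5 3. Single markers differed in their highest library, such as Col1a2, Pdgfra and Des in PEEPA-P5 2 and Cdh5 and Tie1 in vehicle 3. The parietal, chief and enteroendocrine marker sums were lowest in PEEPA-P5 3 as well. The 10 endothelial markers summed to 93.8, 128 and 108 CPM with vehicle and 67.6, 93.1 and 17.9 CPM with PEEPA-P5. The 10 fibroblast markers summed to 426, 464 and 207 against 282, 418 and 50.8 CPM, and the 8 smooth muscle markers to 254, 312 and 144 against 103, 267 and 21.9 CPM. The 10 macrophage and myeloid markers summed to 26.5 to 44.2 CPM with vehicle and 12.2 to 40.2 CPM with PEEPA-P5, with the same highest and lowest library. The 8 T and B cell markers found in the table summed to at most 2.24 CPM in any library. No marker of these 5 lists was at 0 in every library. In vehicle 2 the endothelial sum was 1.36 times and the fibroblast sum 1.09 times that of vehicle 1, while Egr1 was 7.72 times its level there. The part of these cells in the Egr1 values was not tested, and in bulk RNA fewer cells of a type and less RNA per cell cannot be told apart.

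Klf4 (Entrez 16600), a zinc-finger factor of differentiating epithelium, was the most abundant member in TPM and had the lowest within-group SD of log2 CPM. Across all 6 libraries its highest CPM was 1.62 times its lowest, against 1.47 times for Ier2. It stood at 1069, 1107 and 1027 CPM with vehicle and 1186, 1293 and 1661 CPM with PEEPA-P5, with every PEEPA-P5 library above every vehicle library. The log2 difference was 0.37 with a standard error of 0.15 and an interval of 0.03 to 0.71 (edgeR unadjusted p 0.038, adjusted p 0.412), and it was higher in 3 of 3 numbered pairs. In TPM the groups met, as vehicle 2 at 450.19 TPM lay above PEEPA-P5 1 at 416.93 TPM, and the limma test on log2(TPM + 1) gave a log2 difference of 0.25 (unadjusted p 0.108). With the library number as a block the unadjusted p was 0.064. Without PEEPA-P5 3 the log2 difference was 0.22.

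Broad epithelial markers and 4 of 5 genes listed as surface mucous markers had differences above 0, as Klf4 had. Parietal, chief and enteroendocrine cell markers had differences below 0, and gland and neck mucous cell markers were split. Of these lists 0 genes were past the adjusted threshold. The 6 markers Epcam, Cdh1, Krt8, Krt18, Krt19 and Cldn18 summed to 17320, 14030 and 13750 CPM with vehicle and 18430, 18290 and 21810 CPM with PEEPA-P5, and 6 of 6 had a fitted difference above 0, with a median of 0.31. The 5 surface mucous cell markers summed to 128900, 109300 and 127200 CPM against 140200, 140200 and 171500 CPM, with a median of 0.29, and 4 of 5 lay above 0. The other gene placed in this list, Gkn3, had a log2 difference of -0.17. It was highest in vehicle 2 and lowest in PEEPA-P5 3, and whether it marks surface cells here was not tested. Klf4 and both marker sums were all highest in PEEPA-P5 3. The 6 parietal cell markers, of the acid-secreting cells best known from the stomach's corpus, summed to 976, 3371 and 6869 CPM with vehicle and 150, 880 and 40.9 CPM with PEEPA-P5. Of these 0 lay above 0, with a median of -3.08. The 4 chief cell markers, of the pepsinogen-secreting cells, summed to 9276, 22860 and 84580 against 7572, 9948 and 2724 CPM, with 0 above 0 and a median of -1.83. Both sums were highest in vehicle 3 and lowest in PEEPA-P5 3. At an unadjusted p under 0.05, 4 parietal and 4 chief cell markers were lower, where 6.14% of all tested genes were. Cblif was placed in both lists here and so cannot tell parietal from chief cells. It enters both sums and both counts, which are therefore not independent. The other parietal markers at this threshold were Slc26a7, Kcnq1 and Clic6. The 7 enteroendocrine markers also had 0 above 0, with a median of -0.82, and the 4 gland and neck mucous cell markers had 2, with a median of -0.38. The part of the epithelial make-up in the Klf4 values was not tested.

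Ier2 and Ier3 encode small early response proteins, of which IER3 is known to modulate survival under stress. Ier3 (Entrez 15937) was at 25.9, 33.5 and 27.0 CPM with vehicle and 30.5, 26.2 and 56.5 CPM with PEEPA-P5. PEEPA-P5 3 stood apart at 1.99 times the mean of the other PEEPA-P5 libraries, and the other 5 libraries overlapped. Its log2 difference was 0.39 with an interval of -0.31 to 1.08, and -0.02 without PEEPA-P5 3. Ier2 (Entrez 15936) was even across libraries, at 53.0, 78.1 and 61.4 CPM with vehicle and 65.7, 61.3 and 75.0 CPM with PEEPA-P5. Between groups it differed by 0.07 log2 units with an interval of -0.31 to 0.44. This difference turned below 0 with library totals, where the median of all tested genes was -0.09. Ier3 stood at 0.65 to 0.74 of the Ier2 level in the other 5 libraries and at 1.14 in PEEPA-P5 3, in TPM.

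Of the members that end the response, Zfp36 (Entrez 22695), which binds AU-rich elements in mRNAs and speeds their decay, had 75.1, 101 and 74.0 CPM with vehicle and 83.7, 62.7 and 116 CPM with PEEPA-P5. Its order of libraries was that of Junb at both ends, with PEEPA-P5 3 highest, vehicle 2 next and PEEPA-P5 2 lowest. The log2 difference was 0.07 with an interval of -0.49 to 0.63. It turned below 0 with library totals, where the median of all tested genes was -0.09. Dusp1 (Entrez 19252), a nuclear phosphatase that switches off p38, JNK and ERK, had 12.8, 24.5 and 15.4 CPM with vehicle and 17.2, 24.0 and 18.1 CPM with PEEPA-P5. Here both libraries numbered 2 were high, and PEEPA-P5 3, the highest library for 7 other members, was not. Its log2 difference was 0.17 with an interval of -0.45 to 0.79.

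Pairs of members were compared by the root-mean-square difference of their centred log2 CPM profiles over the 6 libraries. Jun and Klf4 were the closest of the 45 pairs, at 0.11 log2 units, followed by Junb and Zfp36 at 0.12. Every pair that held Egr1 lay at 1.30 or more, and the widest pair without Egr1, Fos and Fosb, at 0.47. By the same measure, the genes nearest to the mean profile of the 10 members, out of 9790 with a mean of at least 5 CPM, were Galnt10 at 0.10, Fbxo34 at 0.11, Gabbr1 and Tmtc4 at 0.12, and Mctp2 and Lad1 at 0.13. With Egr1 left out of the mean, a choice made after its values were seen, the nearest were Errfi1, a feedback inhibitor of the EGF receptor, at 0.02, the kinase gene Frk at 0.06 and Cebpb, an early response transcription factor, at 0.08. Next came Gabbr1 at 0.08, Pard6b at 0.09 and Slc10a5 at 0.10, which are on none of the early response lists used here. Over 6 libraries and this many genes some profiles lie close whatever the genes do.

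Wider gene lists of the same response were counted beside the members, and 0 genes of any of them passed the adjusted threshold in edgeR. The number of all tested genes at an unadjusted p under 0.05 moved with the setting, and list counts are to be read beside it. With all libraries it was 1576 of 13071. Leaving out vehicle 1, 2 or 3 in turn gave 2070 of 13268, 717 of 13197 and 759 of 13274. Leaving out PEEPA-P5 1, 2 or 3 gave 1008 of 13355, 1691 of 13321 and 1171 of 13362. At an unadjusted p under 0.05, which 12.1% of all tested genes reached, 2 of 14 tested further AP-1 and ATF genes were higher and 0 lower, with a median log2 difference of 0.26. The median was 0.08 without PEEPA-P5 3 and 0.11 without vehicle 3, and the count was 1 without PEEPA-P5 3 and 4 without PEEPA-P5 2. With all libraries the 2 genes were Jund and Atf3, a stress-induced member, which had 19.8, 23.1 and 27.6 CPM with vehicle and 33.6, 36.9 and 55.2 CPM with PEEPA-P5. Of 21 further immediate early transcription factors, 2 were higher and 3 lower, with a median of 0.09, which turned to -0.10 without PEEPA-P5 3. This count of 5 was 1 without vehicle 3, 2 without PEEPA-P5 1 or PEEPA-P5 2, and 3 without vehicle 2 or with the library number as a block. It was also 3 with upper quartile factors, with library totals and on both TPM scales, and 2 with the filter at a mean of 10 CPM. Over all tested genes the number was 1496, 1328, 1295 (log2(TPM + 1)) and 1213 (log2(TPM + 0.1)) of 13071, and 1017 of 8436 with that filter. With the block it was 1788 of 13071, and with DESeq2 1831 of 17194. Myc, the growth-promoting factor, was at 31.5, 45.8 and 29.7 CPM with vehicle and 24.4, 24.6 and 17.9 CPM with PEEPA-P5, and Klf6, a relative of Klf4, at 136, 143 and 92.9 against 175, 146 and 200.3 CPM. The nuclear receptor genes Nr4a2 and Nr4a3 had log2 differences of -0.51 and -1.44. In each of Atf3, Myc, Klf6, Nr4a2 and Nr4a3 the groups did not overlap, which was also so for 20.4% of all tested genes.

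Of 30 further early response effectors, 8 reached an unadjusted p under 0.05, against 12.1% of all tested genes. Of the 8, 5 were higher and 3 lower, and the list's median was 0.22, or 0.02 without PEEPA-P5 3. The count was 4 without vehicle 3 and with log2(TPM + 0.1), and 5 with log2(TPM + 1) and with library totals. In these settings the number over all tested genes was lower too, as given above. Zfp36l1 and Zfp36l2, the relatives of Zfp36, stood at 85.2 ± 0.71 CPM with vehicle against 68.5 ± 0.51 CPM with PEEPA-P5 and at 148 ± 31.2 against 105 ± 8.22 CPM (SD, n = 3 each), with log2 differences of -0.32 and -0.50 (edgeR adjusted p 0.412 for each). Gadd45a, a DNA damage response gene, was at 8.99 ± 3.54 against 19.0 ± 3.97 CPM and the kinase gene Plk3 at 29.9 ± 3.78 against 53.1 ± 20.9 CPM. Of the mRNAs known to be bound by ZFP36, 10 of 12 fell below the count filter, with at most 24 counts in a library. The other two, Vegfa and Ptgs2, had log2 differences of -0.05 and -0.40.

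Of 15 tested feedback phosphatases and inhibitors of ERK and related kinases, 2 reached an unadjusted p under 0.05, both higher, with a median of 0.06. That share is near the 12.1% of all tested genes. The count was 1 without vehicle 1, vehicle 2 or PEEPA-P5 1, with library totals and on both TPM scales, and 0 with the filter at a mean of 10 CPM. Over all tested genes the number rose without vehicle 1 and fell without vehicle 2 or PEEPA-P5 1, as given above. Dusp10, which acts on p38 and JNK, was at 3.22, 3.72 and 3.20 CPM with vehicle and 5.96, 5.31 and 6.12 CPM with PEEPA-P5, and Dusp4 at 9.26, 11.6 and 13.3 against 15.3, 18.1 and 14.5 CPM. Among 33 upstream kinases and resident factors 2 were higher and 1 lower, with a median of 0.02, or 0.11 without PEEPA-P5 2 and -0.07 with log2(TPM + 0.1). The count of 3 was 0 without vehicle 2, vehicle 3 or PEEPA-P5 3, 6 without vehicle 1, and 1 with DESeq2, with library totals and on both TPM scales. Over all tested genes the number also fell without vehicle 2, vehicle 3 or PEEPA-P5 3 and rose without vehicle 1, as given above. With all libraries the 3 were Egfr, the EGF receptor gene, at 53.8 ± 10.07 against 75.5 ± 16.4 CPM, Nras at 53.5 ± 1.72 against 64.9 ± 8.83 CPM and Elk1, an ETS-type partner of SRF, at 5.46 ± 0.61 against 3.75 ± 0.33 CPM (SD, n = 3 each).

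Heat shock genes, which also respond to stress and to tissue handling, were read as a marker of the libraries' state. Of 14 tested, 1 was higher at an unadjusted p under 0.05, Hsp90aa1, at 225, 222 and 220.4 CPM with vehicle and 509, 423 and 229 CPM with PEEPA-P5. Of all tested genes 5.92% were higher at this threshold. The list's median was 0.28 over all libraries and -0.14 without PEEPA-P5 3. Without PEEPA-P5 3 the count in either direction was 6, without PEEPA-P5 1 and with DESeq2 it was 2, and without vehicle 2 and on both TPM scales it was 0. Over all tested genes the number fell without PEEPA-P5 3, PEEPA-P5 1 or vehicle 2 and on both TPM scales, as given above. Hspa1a and Hspa1b, near-identical copies whose reads cannot be divided with certainty, which were picked for mention because of these values, had 68.0 and 143 CPM in PEEPA-P5 3. In the other 5 libraries they had 1.45 to 5.19 and 3.49 to 16.5 CPM. PEEPA-P5 3 was thus the library with the highest Hspa1a and Hspa1b and the highest CPM of 7 immediate early genes, while vehicle 2, the other high library, had 2.48 and 9.17 CPM. The rest of the list was mixed in PEEPA-P5 3. Of the 14 genes 8 lay above their own mean there, while Hspb1, Cryab, Hspe1, Hspd1 and Hsp90ab1 had their lowest CPM there. The part of the heat shock genes in the members' values was not tested.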

How the data were processed

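Per the file headers, the authors deposited an expected count, an FPKM and a TPM value for each gene and library. The submitters' processing notes name Bowtie2 2.2.5, RSEM 1.2.12 and build mm9, without settings or strand. FPKM values and the authors' group means were deposited too and not used. Library totals were 16388852 to 16903559 counts, and every library pair differed beyond sampling noise. Expected counts (9.82% not whole) were rounded and tested with edgeR 4.0.16 in R 4.3.3: TMM factors, edgeR's expression filter (13071 genes), robust quasi-likelihood test, Benjamini-Hochberg adjustment at 0.05. Standard errors and 95% intervals derive from it. Profiles use log2 CPM with a prior count of 2.

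The members and gene lists were chosen with earlier results of these data known. From each wider list up to 4 genes with the smallest unadjusted p under 0.05 were named, otherwise the 2 of highest TPM. Libraries carry numbers 1 to 3 in both groups. Same-numbered libraries deviated together from their group means over 13071 genes (correlations 0.237, 0.346 and 0.235). Of the differently numbered pairs, vehicle 2 with PEEPA-P5 1 reached 0.176, vehicle 1 with PEEPA-P5 3 0.027, and the rest lay below 0. These correlations are not independent, as the deviations within a group sum to 0. The number was also fitted as a block, although no label says what it stands for. The other alternatives were DESeq2 1.42.0, limma 3.58.1 (voom, and log2 TPM with pseudocounts of 1 and 0.1), other factors and filters, and each library left out. Promoters (RefSeq, GRCm38.p6) were matched by symbol, and transcripts are GENCODE's, both of a later build than mm9.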

Additional observations from a re-analysis of the deposited data

How the results depend on the processing

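The limits are the 3 libraries per group and the spread among them. Over 13071 genes edgeR and limma-voom called 0, and DESeq2 called 110 of the 13190 genes it adjusted. With 1 library left out in turn, over 13197 to 13362 genes, the edgeR count ran from 0 to 1, the 1 being without vehicle 1. In all 16 alternatives 0 members passed the adjusted threshold. The number of members at an unadjusted p under 0.05 was 1, and 0 with library totals only, with log2(TPM + 1), with log2(TPM + 0.1) and with the replicate block. With 1 library left out it ran from 0 to 1, while over all tested genes it ran from 717 to 2070. The number of members without overlap was 1, 0 with library totals only and with either TPM scale, and from 1 to 3 with 1 library left out. The share of all tested genes was not counted in these alternatives, and fewer libraries separate more easily. The members' median of 0.18 ran from -0.02 to 0.40 with 1 library left out, lay between 0.07 and 0.22 in the other alternatives, and was 0.22 with the replicate block, which changed no adjusted call. On log2(TPM + 0.1) the median of all genes shifted to -0.10, and the members' median there was 0.12. The median of all genes was -0.08 on log2(TPM + 1), -0.09 with library totals and -0.05 with upper quartile factors. Fitted signs were kept in every alternative run for Jun, Klf4 and Fosb (which the filter at a mean of 10 CPM removed). They changed in 7 of 16 for Junb, 6 for Zfp36, 5 for Ier2, 2 for Fos and 1 each for Dusp1, Egr1 and Ier3. The cause was not tested. Depth limits Fosb most, at 47 to 108 counts per library.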
